A study of Mus musculus with 10 samples.

Results

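The differences between yogurt-fed and control mice that were shared by jejunum, ileum and distal colon were measured on 6 of the 10 arrays of the series. The comparison took yogurt against control within each of the 3 segments, with the segment as a block, and gave for each gene 3 log2 differences and their mean. A gene was kept if its value lay above the array median on at least 1 array of each segment, and a gene with several probe sets was represented by the one with the highest mean over all 10 arrays. This left 11617 of the 18193 genes named on the array. Yogurt-fed mice were males of the outbred ICR stock that ate the purified AIN-93 diet with 1 to 2% LB81 yogurt, a milk soured by Lactobacillus bulgaricus together with Streptococcus thermophilus, from 8 to 28 months of age. Control mice were ICR males that ate AIN-93 without yogurt over the same months. All were housed singly under specific-pathogen-free conditions and were 28 months old at sampling. RNA of each tissue was pooled over 10 yogurt-fed mice and over 9 control mice, so each segment had 1 array per diet, and the 3 segments came from the same mice.

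The small intestine digests and absorbs in the jejunum and recovers bile acids in the ileum, and the distal colon lies over the densest part of the gut microbiota. In all 3, a single layer of epithelium secretes mucus and antimicrobial proteins and sits beside a large population of immune cells. Fermented milk carries bacteria and their products into the tract, and a shift seen in every segment is a different measurement from one seen at a single site.

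The arrays carried the markers of the segments they were labelled with. The lactase gene Lct lay at 9.98 in yogurt jejunum and 10.50 in control jejunum on the log2 scale and below the array median in ileum and distal colon. Fabp6, the ileal bile acid carrier, lay at 13.83 in yogurt ileum and 13.82 in control ileum, and Hoxb13, a posterior Hox gene, at 11.52 in yogurt distal colon and 11.78 in control distal colon. Markers of neighbouring organs were also present in the jejunum arrays. Of 17 exocrine pancreas genes on the array, the summed linear signal was 103692.5 in yogurt jejunum and 46588.2 in control jejunum, and that of 11 gastric mucosa genes was 28111.1 in yogurt jejunum and 35225.6 in control jejunum. The log2 ratios of those sums were 1.15 and -0.32. In ileum and distal colon both ratios lay between -0.02 and 0.08, although the pancreas list holds Zg16, which goblet cells also express. The part of such tissue in the jejunum differences was not tested. The jejunum differences stand beside those of the other segments for most genes below. Gapdh signal ratios of 3' over 5' probes, a sign of RNA quality, lay between 0.05 and 0.23 on the 6 gut arrays (log2). Those of actin were larger, between 0.665 and 1.013 on the same arrays. The yogurt and control arrays of a tissue correlated at 0.9915 to 0.9943 (Spearman, across probe sets).

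Across the 3 segments, 1 gene rose in the yogurt pool and none fell at a Benjamini-Hochberg adjusted p under 0.05 in limma with segment as a block, which is 0.00861% of the genes tested in the higher direction and 0% in the lower. At an unadjusted limma p under 0.05, 538 genes were higher (4.63%) and 978 were lower (8.42%). The gene that rose, BC018473, lay below the median on all 3 control arrays and was tested only because its yogurt arrays lay above it, and with all 6 gut arrays required above the median it was not tested and no gene passed. Differences had the same sign in all 3 segments for 1513 genes higher in the yogurt pool (13%) and 2857 lower (24.6%), or 37.6% in all. That tilt toward lower values depended on scaling: with each segment's differences centred on their median, the counts were 2139 higher and 2123 lower, so that 50.2% of the evenly signed genes were higher, against 34.6% with the values as deposited and 41.6% after quantile normalization. The median difference over all genes was -0.01 in jejunum, -0.04 in ileum and -0.01 in distal colon, and the mean differences ran between -0.22 at the 2.5 percentile and 0.21 at the same distance from the top. Across genes, which are not independent replicates, the differences of jejunum and ileum had a Pearson correlation of 0.26, those of jejunum and distal colon 0.19 and those of ileum and distal colon 0.11. These correlations are descriptions, since the segments share their mice. For the same reason, every p-value here measures how evenly the pools differed over the segments and not the spread between mice, and swapping the diets within 3 segments could not give a two-sided exact p below 0.25.

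**Figure D1:**
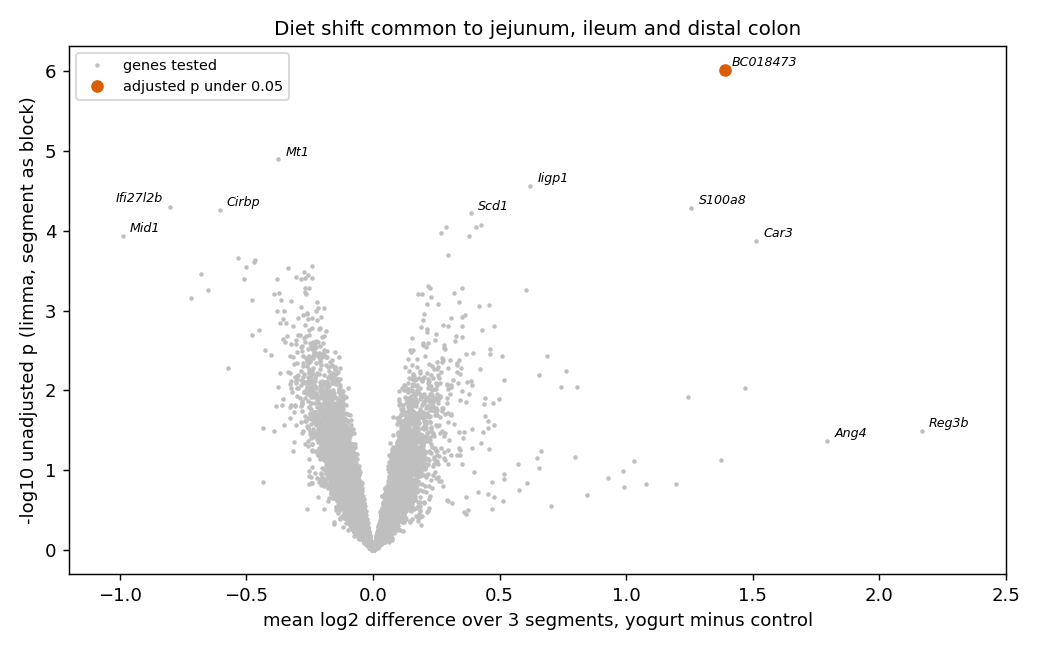
Mean log2 difference over 3 gut segments (x axis, yogurt minus control) against -log10 of the unadjusted limma p (y axis) for each gene tested. The orange point, BC018473 at 1.39, is the gene with an adjusted p under 0.05. Reg3b and Ang4, with means of 2.17 and 1.79, lie lower on the y axis because their 3 segments differed widely.

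BC018473, annotated as a long non-coding RNA gene on chromosome 11, rose in the yogurt pool of all 3 segments. Its deposited log2 values were 6.70 in yogurt jejunum, 7.03 in yogurt ileum and 6.89 in yogurt distal colon, against 4.68, 4.48 and 4.27 in control jejunum, ileum and distal colon. The 3 yogurt arrays lay above every control array, and all control values lay below the floor, which is the array median of 5.47 to 5.49 to which lower values were raised. The differences against the floor were therefore bounds, at least 1.22, 1.55 and 1.40 in jejunum, ileum and distal colon, with a mean of at least 1.39 (SE 0.088, 3 segments), or at least 2.62-fold, and a limma adjusted p of 0.0113. BC018473 was also higher in yogurt liver, at 6.21 against 4.47 in control liver, and in yogurt spleen, at 8.92 against 5.61 in control spleen. Its other probe set was at the floor on the gut arrays. The adjusted p was 0.052 without ileum, 0.277 with the spread taken from all 10 arrays, 0.332 with no filter on low values and 0.279 once the floor was raised to the 65th percentile, where the mean difference was 0.21. Raising all 3 control values to nearly equal floors leaves little spread among them, and with the values as deposited the mean was 2.39.

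Only 4 genes differed by at least 1.5-fold in the same direction in all 3 segments: BC018473, S100a8 and Car3 were higher (0.0258%) and Mid1 was lower (0.00861%), 0.0344% together. None of the 3 higher genes lay above the floor on all 6 arrays. Within single segments, genes at least 1.5-fold higher and lower numbered 47 and 18 in jejunum (0.405% and 0.155%), 20 and 27 in ileum (0.172% and 0.232%), and 100 and 7 in distal colon (0.861% and 0.0603%). S100a8 encodes a subunit of calprotectin, the zinc- and calcium-binding complex that fills neutrophils. It lay at 6.96, 6.27 and 6.997 in yogurt jejunum, ileum and distal colon, against 5.39, 5.09 and 5.34 in the control segments. The yogurt and control arrays did not overlap. Since its control values lay below the floor, the differences were at least 1.47, 0.79 and 1.51, with a mean of at least 1.26 (SE 0.144). S100a8 was tested only because its yogurt arrays lay above the floor, which bears on its limma adjusted p of 0.1. In whole tissue, more cells of a type and more RNA per cell cannot be told apart, here or in the groups below. S100a8 was also higher in yogurt liver by 1.27 and in yogurt spleen by 0.59.

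Car3, a carbonic anhydrase abundant in fat, liver and slow muscle, lay at 6.27, 10.52 and 10.89 in yogurt jejunum, ileum and distal colon, against 5.19, 8.75 and 8.91 in the control segments. Each yogurt array lay above the control array of its own segment, by at least 0.79 in jejunum, where the control was below the floor, by 1.77 in ileum and by 1.98 in distal colon. The mean was at least 1.51 (SE 0.201, limma adjusted p = 0.112). In liver and spleen its differences were 0.08 and 0.11. Without jejunum the mean was 1.87 and the adjusted p 1.45e-04, and the gut minus liver and spleen difference also passed its test in that setting and in no other that was run. Adipocyte markers differed in the same segments. Their list holds Car3 itself, so its sums and counts are not independent of the Car3 difference. With Car3 included, the 8 genes on the array summed to 4526.1 in yogurt ileum and 2707.2 in control ileum. The sums were 5451.1 in yogurt distal colon and 2750.3 in control distal colon, but 2270.4 in yogurt jejunum and 2067.4 in control jejunum. Adipoq, the adipocyte hormone adiponectin, lay at 7.37 in yogurt ileum against 5.90 in control ileum, at 7.58 in yogurt distal colon against 5.40 in control distal colon, and below the array median on both jejunum arrays. Fabp4, the fatty acid carrier of adipocytes and capillaries, had a mean difference of 0.46 (SE 0.104, adjusted p = 0.254), and Lpl, lipoprotein lipase, one of 0.81 (SE 0.226, adjusted p = 0.284). Of the 5 adipocyte genes tested, Car3 among them, 3 were higher in all 3 segments (13% of all genes). An unadjusted limma p under 0.05 was seen for 4, all higher (4.63% of all genes), with Pck1 near 0 at -0.02. Car3 is not among the 4 genes above the floor on all 6 arrays, of which 2 were higher in all 3 segments. The part of adipose tissue in the Car3 difference was not tested.

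Mid1, an X-linked ubiquitin ligase of microtubules that spans the pseudoautosomal boundary in mice, was lower in every yogurt segment. It lay at 6.16, 6.23 and 6.22 in yogurt jejunum, ileum and distal colon, against 7.50, 7.24 and 6.84 in the control segments. All 3 yogurt arrays were close together and below all 3 control arrays. The differences of -1.33, -1.01 and -0.62 gave a mean of -0.99 (SE 0.128), or 1.98-fold lower, with a limma adjusted p of 0.104. Mid1 was also lower in yogurt liver, at -0.87, and in yogurt spleen, at -0.65. Without distal colon its adjusted p was 0.015.

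**Figure D2:**
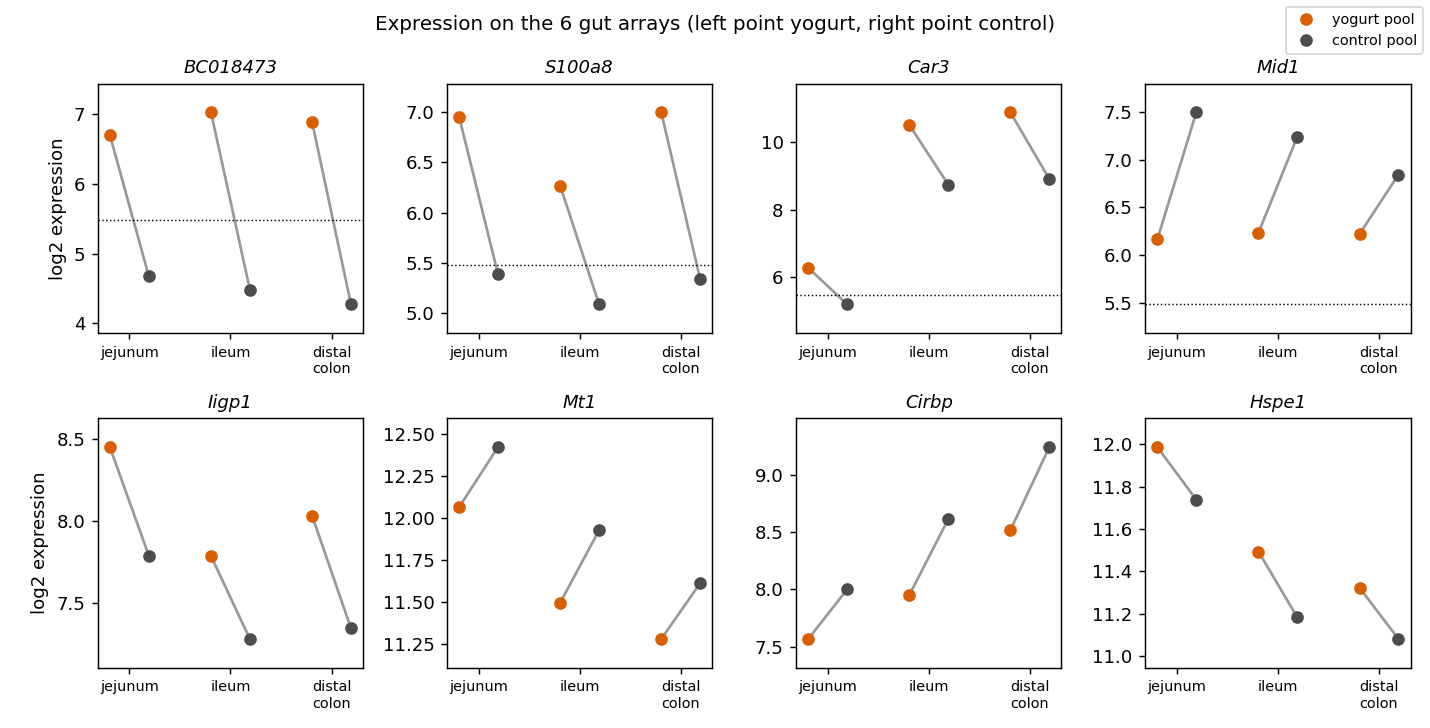
Log2 expression (y axis, scale differs between panels) of 8 genes on the 6 gut arrays, with the yogurt pool (orange) left of the control pool (grey) in each segment. Lines join the arrays of a segment, and the dotted line marks the floor. BC018473 and S100a8 lie below the floor on all 3 control arrays, and Mt1, Cirbp and Hspe1 differ by less than the segments do among themselves.

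Besides these, the genes with the most evenly higher values had mostly small differences and mixed functions. Iigp1, an interferon-inducible GTPase that attacks the vacuoles of intracellular parasites, lay at 8.45, 7.78 and 8.03 in yogurt jejunum, ileum and distal colon, against 7.79, 7.28 and 7.34 in the control segments. It was higher within every segment, although the ileum of the yogurt pool lay just below the jejunum of the control pool. Its mean difference was 0.62 (SE 0.0645), or 1.54-fold, with a limma adjusted p of 0.1, and the adjusted p was 0.0224 with the spread from all 10 arrays and 0.0451 without distal colon. In liver and spleen Iigp1 differed by 0.07 and 0.13. Scd1, the desaturase that makes monounsaturated fatty acids, had differences of 0.38, 0.43 and 0.35 and an adjusted p of 0.1. It passed at 0.0251 with the spread from all 10 arrays. Its other probe set, at or near the floor in the gut, had a mean of 0.01. Hnf4g, a nuclear receptor of enterocytes, had differences of 0.40, 0.51 and 0.38 (adjusted p = 0.104). Mptx1, a mucosal pentraxin of the intestinal epithelium, had 0.43, 0.43 and 0.95 (adjusted p = 0.165). Selp, the P-selectin of activated endothelium and platelets, was higher by 0.38, 0.61 and 0.38 without overlap between diets (adjusted p = 0.185), and lower in yogurt liver, at -0.53. Tra2a, a splicing regulator, had a mean of 0.41 and Malat1, a nuclear non-coding RNA, one of 0.38 (adjusted p = 0.104 for each), but the 7 probe sets of Malat1 ranged from -0.15 to 0.48. Collagen chain Col1a1, at a mean of 0.35 (adjusted p = 0.239), was the member of the extracellular matrix list highest in this order. Only 2 of the 20 tested genes of that list were higher in all 3 segments, beside 13% of all genes. Another Col1a1 probe set was higher in jejunum alone, at 0.43, with a mean of 0.07. The other genes of the rule were Ang4, Afap1l2, Lpl and St6galnac2, with smallest differences of 0.28 to 0.42.

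Both metallothioneins tested were lower in every yogurt segment. Mt1, a small zinc- and copper-binding protein, lay at 12.06, 11.49 and 11.28 in yogurt jejunum, ileum and distal colon, against 12.42, 11.93 and 11.61 in the control segments. Each yogurt array was below its own control, and the order of the segments was the same on both diets. The differences of -0.36, -0.43 and -0.33 gave a mean of -0.37 (SE 0.0347), or 1.30-fold lower, with a limma adjusted p of 0.0744. It passed with no floor (0.0412), with a floor set at the 35th percentile (0.0396), with a pseudocount (0.0419) and without distal colon (0.015). Mt2, its neighbour in the same family, had differences of -0.70, -0.99 and -0.34 (mean -0.68, SE 0.105, adjusted p = 0.157). In yogurt liver both were higher, Mt1 by 0.40 and Mt2 by 0.33, and in yogurt spleen both were lower, at -0.27 and -0.28. Probe sets of the related genes can bind each other's transcripts. Of the 6 genes tested on the list of metallothioneins and zinc transport, these 2 had an unadjusted p under 0.05 on the lower side, beside 8.42% of all genes, and the zinc carrier Slc39a5 was the third with 3 lower values (mean -0.10).

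Ifi27l2b, a small interferon-inducible membrane protein, lay at 9.07, 8.87 and 8.14 in yogurt jejunum, ileum and distal colon, against 10.16, 9.45 and 8.88 in the control segments. Its mean difference was -0.80 (SE 0.0918, limma adjusted p = 0.1), opposite in sign to Iigp1. H2-Ea, which encodes the alpha chain of the class II E molecule and is annotated as a transcribed pseudogene in the RefSeq table, lay at 9.29, 8.98 and 9.27 in yogurt jejunum, ileum and distal colon, against 9.63, 9.73 and 9.62 in the control segments, with no overlap (mean -0.48, SE 0.0837, adjusted p = 0.179). Of its other probe sets, one had a mean of -0.78 and one lay at the floor. Sphk1, which makes sphingosine phosphate, was lower, at -0.34, -0.34 and -0.40 (adjusted p = 0.205). Fggy, a carbohydrate kinase, had a mean of -0.53, Sbsn, a secreted epithelial protein, -0.50, and Cmtm7, a membrane protein of the chemokine-like family, -0.39 (adjusted p of 0.157, 0.157 and 0.165). The non-coding gene Gm15417 had the narrowest range of all 24 genes of the rule, with differences of -0.35, -0.37 and -0.37 (adjusted p = 0.179). The remaining lower gene, Flacc1, had a mean of -0.37. Over all genes tested, the 3 yogurt and 3 control arrays did not overlap for 85 higher genes (0.732%) and 190 lower genes (1.64%).

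**Figure D3:**
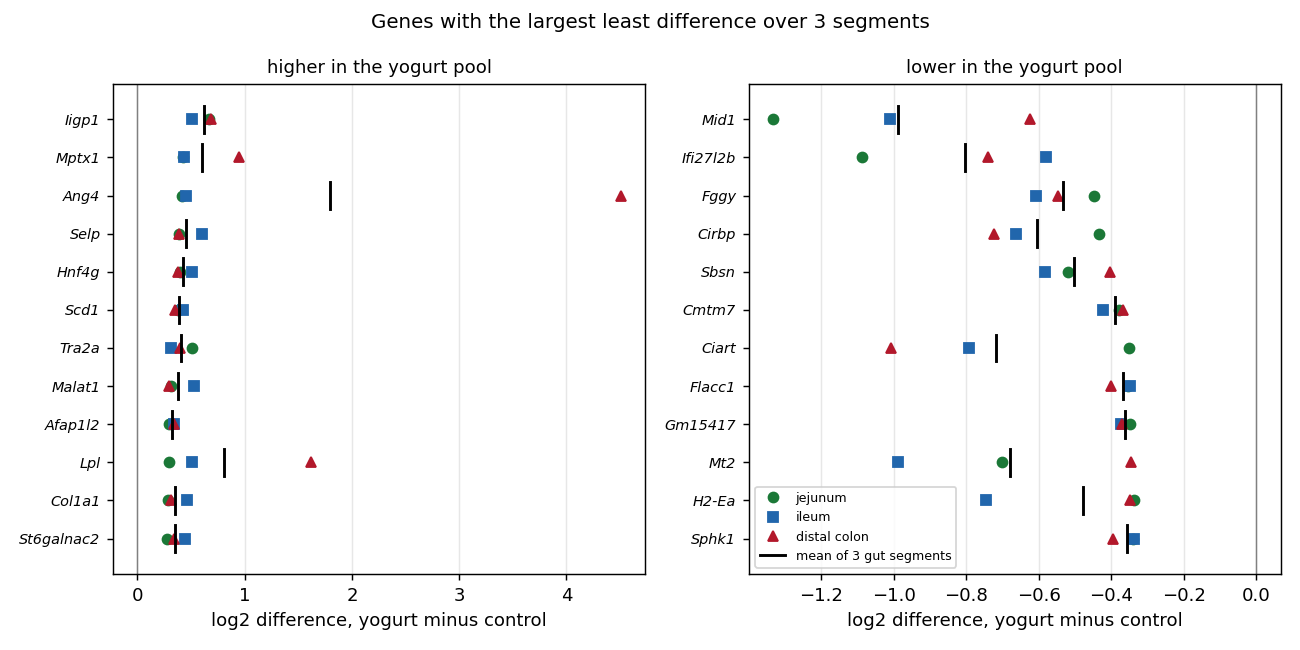
Log2 differences, yogurt minus control, in jejunum, ileum and distal colon for the 12 genes higher and the 12 lower in the yogurt pool with the largest smallest difference over the segments, among genes above the floor on all 6 arrays. The x axes have different scales; black bars are means. Ang4 and Lpl reach 4.51 and 1.62 in distal colon, far from their other segments, while Gm15417 and Cmtm7 lie nearly on 1 point.

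Most genes of the negative limb of the circadian clock had lower values in the yogurt pool along the gut. In this clock, a heterodimer of Arntl with Clock or Npas2 drives transcription through E-boxes, the Per and Cry proteins and Ciart repress it, Nr1d1 and Nr1d2 (the Rev-erb receptors) repress Arntl, and Dbp, Tef and Hlf act on D-boxes in output genes. Of 14 tested genes of these repressors and outputs, 9 were lower in all 3 segments and 1, the glucocorticoid-induced leucine zipper gene Tsc22d3, was higher, beside 24.6% and 13% of all genes tested. The same 9 counted as lower at an unadjusted limma p under 0.05, where the background was 8.42%, and none had an adjusted p under 0.05. Bhlhe41, the 15th member, did not pass the filter on low values. The median of the mean differences was -0.22, against -0.02 over all genes, and lay between -0.27 and -0.19 under 12 alternatives. By segment the medians were -0.22 in jejunum, -0.16 in ileum and -0.32 in distal colon.

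Promoters of 2 members are shown because they hold the elements through which the clock acts. The windows reach from 250 bases before to 50 after a RefSeq start site in GRCm38.p6. Capitals mark the E-box CACGTG in Ciart (chr3:95882179-95882478, minus strand) and the D-box TTATGTAA in Per3 (chr4:151044616-151044915, minus strand).
Ciart: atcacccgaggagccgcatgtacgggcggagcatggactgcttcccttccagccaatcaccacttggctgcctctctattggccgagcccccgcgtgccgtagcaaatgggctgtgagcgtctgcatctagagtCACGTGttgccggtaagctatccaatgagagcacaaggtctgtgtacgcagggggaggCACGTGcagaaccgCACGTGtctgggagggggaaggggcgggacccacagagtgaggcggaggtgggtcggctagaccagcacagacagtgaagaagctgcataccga
Per3: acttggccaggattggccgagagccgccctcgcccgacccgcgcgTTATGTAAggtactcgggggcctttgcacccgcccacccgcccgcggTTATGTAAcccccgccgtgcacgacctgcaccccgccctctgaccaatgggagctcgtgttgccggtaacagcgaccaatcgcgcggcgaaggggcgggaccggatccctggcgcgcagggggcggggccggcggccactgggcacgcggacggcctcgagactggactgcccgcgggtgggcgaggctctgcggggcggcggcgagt
Ciart held 3 E-boxes and Per3 held 2 D-boxes, searched on both strands, with no overlap between motifs. The 13 members with windows had 17 of them. An E-box lay in 6 of the 17, from 5 genes (Bhlhe41, Ciart, Cry1, Per1 and Tef), and the D-box in 1, that of Per3. Of all 32851 windows, 7.15% held the E-box and 0.938% the D-box. These matches describe letters in a window, and a window without a match says nothing about the factor.

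Ciart, the repressor with 3 E-boxes, lay at 5.93, 5.93 and 6.23 in yogurt jejunum, ileum and distal colon, against 6.29, 6.72 and 7.24 in the control segments. All yogurt arrays lay below all control arrays, and the differences widened along the gut, at -0.35, -0.79 and -1.01. The mean was -0.72 (SE 0.125), or 1.64-fold lower, with a limma adjusted p of 0.176. Per3, with its 2 D-boxes, lay at 6.94, 7.12 and 7.88 in the yogurt segments, against 7.47, 7.43 and 8.19 in the control segments (mean -0.38, SE 0.0706, adjusted p = 0.193), although its 6 probe sets ranged from -0.38 to 0.13. Usp2, a rhythmic deubiquitinase, had differences of -0.51, -0.26 and -0.37 (adjusted p = 0.157), and Tef had -0.41, -0.18 and -0.38 (adjusted p = 0.179). Per1 had a mean of -0.30, Nr1d1 -0.31, Nr1d2 -0.19, Cry2 -0.17 and Bhlhe40 -0.15. Dbp depended on the probe set: the brighter one gave -0.08, 0.08 and -0.76 in jejunum, ileum and distal colon, and the other was lower in all 3, at -0.89, -0.43 and -0.92 (mean -0.75). Other members were not even: Hlf had the other sign in ileum at 0.20, Per2 was lower in jejunum alone at -0.29, and Cry1 had a mean of 0.09. Without distal colon the mean of Dbp was 0.00 on the brighter probe set, and without jejunum that of Per2 was 0.11.

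Of the activators and Rev-erb targets, 6 were tested and 5 had a mean above 0, with a median of 0.13, while 41.6% of all genes had a mean above 0 and 58.4% one below. Nfil3 was the member higher in all 3 segments, at 0.41, 0.17 and 0.03, where the last is a bound. Arntl had differences of 0.12, -0.17 and 0.40, Npas2 of 0.45, -0.05 and 0.28, and Clock of -0.02, -0.07 and 0.27. Without distal colon the means of Arntl and Clock were -0.03 and -0.04. None had an unadjusted p under 0.05. The labels used here give no hour of sampling. In yogurt liver Ciart was lower, at -1.03, Dbp at -0.86 and Per3 at -0.60, and Arntl was higher by 0.67, while in yogurt spleen Dbp was lower, at -0.41, Arntl at -0.23, Per3 differed by 0.00, and Ciart lay below the floor on both arrays.

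Most heat shock and chaperone genes had small positive mean differences in the yogurt pool, and the cold-inducible gene Cirbp was lower in every segment. Of 15 heat shock genes tested, 13 had a mean above 0, beside 41.6% of all genes. In all 3 segments 5 were higher and none was lower, beside 13% and 24.6% of all genes, and the other 10 had mixed signs. At an unadjusted limma p under 0.05, 6 were higher, beside 4.63%, and none passed after adjustment. The median was 0.10, at 0.16 in jejunum, 0.14 in ileum and 0.05 in distal colon. The heat shock factor binds repeats of GAANN and its reverse, and the windows of 2 of the 5 genes higher in all segments are shown, with GAANNTTC in capitals, for Hspe1 (chr1:55087898-55088197, plus strand) and Chordc1 (chr9:18292017-18292316, plus strand).
Hspe1: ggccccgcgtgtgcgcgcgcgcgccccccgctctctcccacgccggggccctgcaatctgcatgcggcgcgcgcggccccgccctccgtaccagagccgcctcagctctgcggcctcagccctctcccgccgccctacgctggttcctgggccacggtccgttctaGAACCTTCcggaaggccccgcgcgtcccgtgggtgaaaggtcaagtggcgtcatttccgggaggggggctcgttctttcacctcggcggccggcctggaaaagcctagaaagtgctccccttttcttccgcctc
Chordc1: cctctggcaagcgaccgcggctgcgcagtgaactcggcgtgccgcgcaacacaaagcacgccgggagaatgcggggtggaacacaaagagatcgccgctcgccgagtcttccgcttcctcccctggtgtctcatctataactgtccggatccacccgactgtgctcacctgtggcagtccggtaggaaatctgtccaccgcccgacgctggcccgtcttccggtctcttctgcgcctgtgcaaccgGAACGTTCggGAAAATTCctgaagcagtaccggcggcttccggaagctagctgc
The element was searched on both strands. It lay in 10 of the 18 windows of 13 members, from 9 genes, while 7.86% of all windows held it. The windows of Hspe1 and Hspd1 overlap, so the same element is counted for both. Those 9 genes include Hspb1 and Hspd1, with mean differences of -0.10 and 0.05, and Hspa1a, which was not tested.

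Hspe1, the co-chaperonin of mitochondria whose window holds 1 such element, lay at 11.99, 11.49 and 11.32 in yogurt jejunum, ileum and distal colon, against 11.74, 11.18 and 11.08 in the control segments. Each yogurt array was above its own control, and the differences of 0.25, 0.31 and 0.24 were close to one another. The mean was 0.27 (SE 0.0343), or 1.20-fold, with a limma adjusted p of 0.104 (0.0426 without distal colon). Chordc1, a co-chaperone with 2 elements in its window, was higher by 0.19, 0.21 and 0.25 without overlap (adjusted p = 0.224). Hsph1, a nucleotide exchange factor of the cytosolic chaperones, had 0.39, 0.45 and 0.18 (adjusted p = 0.181). Hspa1b, the inducible member, was higher in jejunum and ileum by 0.32 and 0.38 and lay at -0.05 in distal colon. Hspb1, a small heat shock protein, lay at -0.43 in distal colon.

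Cirbp, an RNA-binding protein whose transcript rises with mild cold and follows body temperature rhythms, lay at 7.57, 7.95 and 8.52 in yogurt jejunum, ileum and distal colon, against 7.999, 8.61 and 9.24 in the control segments. It was lower within every segment, at -0.43, -0.66 and -0.72, with a mean of -0.61 (SE 0.0701), or 1.52-fold lower, and a limma adjusted p of 0.1. In liver and spleen the yogurt pool was lower too, at -0.69 and -1.16. Under 14 alternatives the mean lay between -0.69 and -0.55 and the adjusted p between 0.0518 and 0.427.

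**Figure D4:**
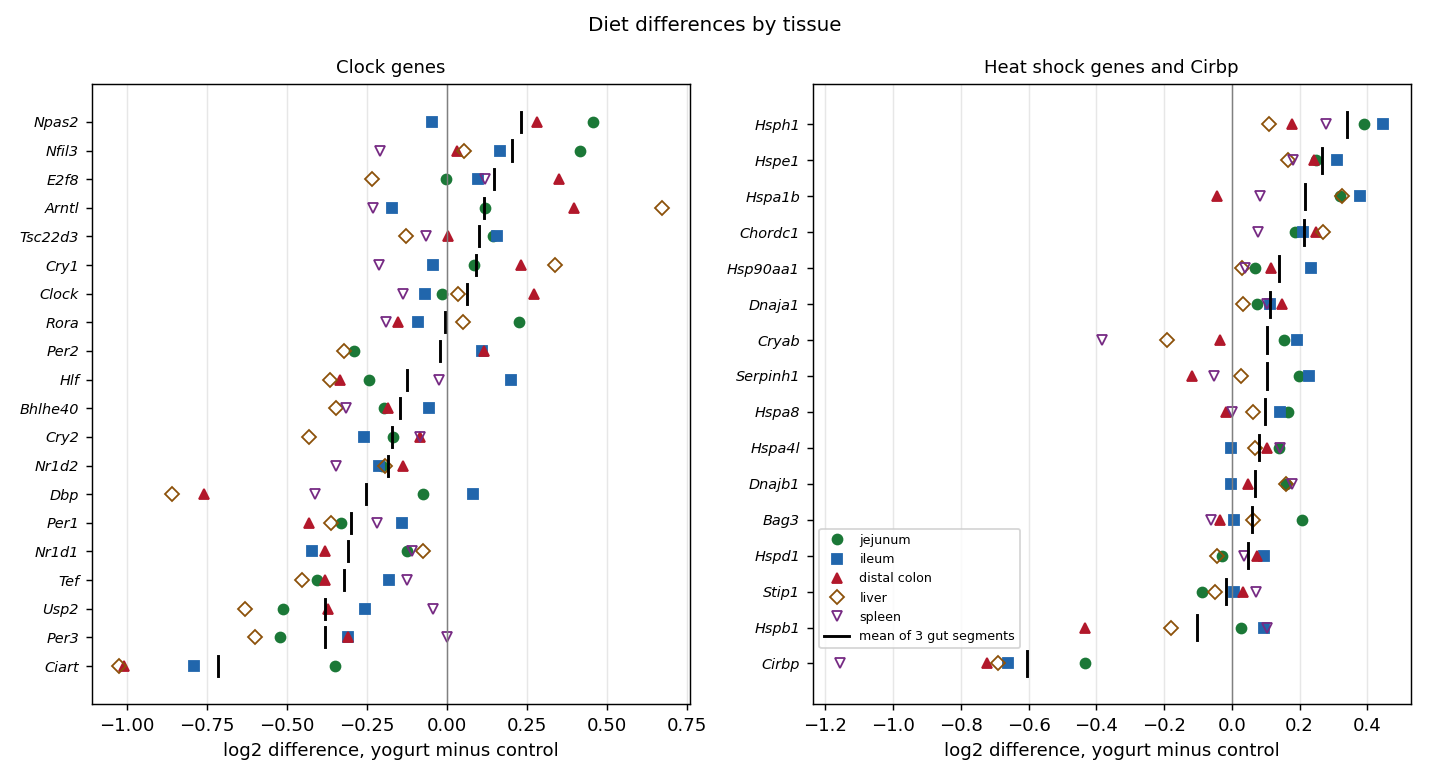
Log2 differences, yogurt minus control, in 3 gut segments (filled) and in liver and spleen (open), for genes of the 2 clock lists (left) and for heat shock genes with Cirbp (right). Black bars are means over the gut segments. Ciart and Cirbp lie farthest left at -0.72 and -0.61, and Hsph1 and Hspe1 lead on the right at 0.34 and 0.27.

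Most secreted antimicrobial genes tested had higher values in the yogurt pool of every segment, to very different extents. Of 13 tested, 8 were higher in all 3 segments and none was lower, beside 13% and 24.6% of all genes, and 6 had an unadjusted limma p under 0.05, beside 4.63%. Only 10 of them lay above the floor on all 6 arrays, and 5 of those were higher in all 3 segments. The median of the 13 means was 0.66, with segment medians of 0.30 in jejunum, 0.07 in ileum and 0.33 in distal colon. It was 0.16 without distal colon, 0.17 without jejunum or over the 10 genes, 0.21 with no filter and 0.12 once the floor was raised to the 65th percentile. Reg3b, Reg3g and Ang4 differed most in distal colon and were high in ileum on both diets, and ileum markers also differed there: the log2 ratio of their summed signal was 0.90 in distal colon, and Slc51a, a bile acid exporter, lay at 7.15 in yogurt distal colon against 4.72 in control distal colon. The part of ileum tissue in these differences was not tested. Reg3b, a lectin that kills bacteria, lay at 12.64, 13.91 and 10.59 in yogurt jejunum, ileum and distal colon, against 11.25, 13.90 and 5.10 in the control segments. The diets nearly coincided in ileum, and the difference was 1.39 in jejunum and at least 5.10 in distal colon, so that the mean of at least 2.17 had an SE of 0.812 and an adjusted p of 0.338. Reg3g, its relative, followed the same order with 1.14, 0.10 and at least 2.49 (adjusted p = 0.286). Ang4, a ribonuclease of Paneth and goblet cells, lay at 12.11 in yogurt ileum and 11.65 in control ileum, and had differences of 0.42, 0.46 and 4.51 (adjusted p = 0.364), and 0.0121 without distal colon, where the mean was 0.44. Lysozyme Lyz1 differed by 0.03, 0.07 and 0.02. Retnlb, a goblet cell product, ran the other way in the small intestine at -0.87 and -0.51, and was 0.58 in distal colon. The Paneth cell defensin Defa31 was higher by 3.95 in jejunum, lay at 0.00 in ileum and at -0.35 in distal colon, and its probe set can bind related defensins. Reg3a and Camp did not pass the filter, and 5 other defensin names of the list were not matched on the array.

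The neutrophil list held few measurable genes. Of 17 members, 15 were on the array and 7 were tested, of which S100a8, S100a9, Lcn2 and Csf3r were higher in all 3 segments and none was lower in all, beside 13% and 24.6% of all genes. S100a8 and S100a9 lay below the floor on all control arrays and were tested through their yogurt arrays alone, and of the 2 members above the floor on all 6 arrays, 1 was higher in all 3 segments. S100a9, the partner of S100a8 in calprotectin, lay at 6.68, 5.51 and 6.49 in yogurt jejunum, ileum and distal colon, against 5.13, 4.89 and 4.91 in the control segments (bounds of 1.20, 0.03 and 1.00). Lcn2, which withholds bacterial iron carriers, had at least 1.19, then 0.60 and 0.18, a mean of at least 0.66, which was 0.39 without jejunum (adjusted p = 0.283 and 0.664). Csf3r, the granulocyte growth factor receptor, had 0.19, 0.13 and 0.13 (adjusted p = 0.431). Of the members not tested, the granule genes Mpo, Camp and Mmp8 and the receptor Cxcr2 lay below the floor on all 6 gut arrays, Ngp lay above it on 1 (5.51 in yogurt jejunum) and Ltf, lactoferrin, on the jejunum arrays only, at 7.13 in yogurt jejunum and 6.32 in control jejunum. Among acute phase genes, Saa3, a serum amyloid made in mucosa and fat, was higher by 1.10, 0.37 and at least 2.94 (adjusted p = 0.284), Hp, haptoglobin, by 0.29, at least 0.28 and 0.42 (adjusted p = 0.264), and Lrg1 by 0.33, 0.27 and 0.25 (adjusted p = 0.254). Of the 6 acute phase genes tested, 3 were higher in all 3 segments and 1 was lower, beside 13% and 24.6% of all genes. An unadjusted limma p under 0.05 was seen for 4, all higher (4.63% of all genes), and the median was 0.25. Saa3 and Hp, 2 of the 6, each lay below the floor on 1 control array. Of the 4 above the floor on all 6 arrays, 1 was higher in all 3 segments and 1 was lower, with a median of 0.20. S100a8, S100a9, Lcn2 and Saa3 were also higher in yogurt liver, by 1.27, 1.25, 0.45 and 1.13, and in yogurt spleen, by 0.59, 0.74, 1.35 and 1.29.

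Genes of class II antigen presentation had segment medians of 0.23 in jejunum, 0.19 in ileum and 0.00 in distal colon, and the difference between segments was not tested. Of 8 tested, 4 were higher in all 3 segments, among them H2-DMa at 0.35, 0.06 and 0.12, and 1 was lower, H2-Oa at a mean of -0.18, beside 13% and 24.6% of all genes. At an unadjusted limma p under 0.05, 5 were higher, beside 4.63%, and none passed after adjustment. H2-Eb1, the beta chain that pairs with H2-Ea, had 0.31, 0.52 and 0.05 (adjusted p = 0.283), the other sign from H2-Ea. Cd74, the invariant chain, had 0.29, 0.26 and -0.01. Of 9 class I genes tested, 2 were higher in all segments and 2 lower, near those shares of all genes, with B2m at a mean of 0.12 and H2-K1 at -0.11. Of 18 interferon-stimulated genes tested, 6 were higher in all 3 segments and 1 was lower, beside the same 13% and 24.6%. Gbp3, a guanylate-binding GTPase, had 0.38, 0.43 and 0.24 (adjusted p = 0.221), after Iigp1 in that list. The medians of the list were 0.17 in jejunum, -0.04 in ileum and 0.25 in distal colon. Ccl5, a chemokine of T and NK cells, had 0.24, 0.24 and 0.63 (adjusted p = 0.254). Of 17 macrophage genes, 5 were higher in all segments and none was lower, beside the same shares. The list median was 0.06, with 0.08 in jejunum, 0.11 in ileum and -0.02 in distal colon. Of the 16 above the floor on all 6 arrays, 4 were higher in all segments. Among the 5 were C1qb, a complement chain, at 0.35, 0.32 and 0.16 (adjusted p = 0.221) and the mannose receptor Mrc1 at 0.32, 0.12 and 0.24 (adjusted p = 0.284). The 12 with mixed signs include the complement chains C1qa and C1qc, higher in jejunum and ileum but at -0.08 and -0.06 in distal colon. Medians of the T cell list (0.06), the B cell list (-0.04, and -0.13 without jejunum) and the plasma cell list (0.03) were small.

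Stress, metabolic and growth lists showed smaller medians. In the list of the unfolded protein and amino acid response, 8 of 18 genes were higher in all segments and 3 were lower, beside 13% and 24.6% of all genes. The chaperones Hspa5 and Hsp90b1 of the endoplasmic reticulum were on the higher side, at means of 0.10 and 0.11, and Herpud1, of its degradation machinery, on the lower side at -0.17, -0.30 and -0.32 without overlap (limma adjusted p = 0.165), with Chac1, which degrades glutathione, at -0.38 and Trib3 at -0.22. Of 19 genes of the Nrf2 and glutathione list, 5 had an unadjusted p under 0.05 on the lower side and 1 on the higher, beside 8.42% and 4.63% of all genes. Ephx1, an epoxide hydrolase, had differences of -0.56, -0.13 and -0.15 and a mean of -0.28, which was -0.14 without jejunum. The glutathione transferase gene Gstm1 had -0.47, -0.07 and -0.20 and a mean of -0.25, also -0.14 without jejunum, while its relative Gsta4 had -0.33, -0.26 and -0.18 (mean -0.26). Of 18 genes of cholesterol synthesis, 8 were lower in all 3 segments and none was higher, with squalene synthase Fdft1 at -0.11, -0.29 and -0.21 (adjusted p = 0.254). The senescence-associated list had 3 of 7 lower and none higher. Cdkn1a, a cell cycle inhibitor, had -0.16, -0.23 and -0.28 (adjusted p = 0.179). Glb1, lysosomal beta-galactosidase, had -0.27, -0.28 and -0.13 (adjusted p = 0.254). Cxcl1, a neutrophil chemokine, had a mean of -0.13, but another of its probe sets had one of 0.18. The share of all genes lower in 3 segments, 24.6%, and its dependence on scaling stand beside these counts.

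Of 25 cell cycle genes, 10 were higher in all segments and 1 was lower, beside 13% and 24.6% of all genes, but the segment medians were 0.01 in jejunum, 0.01 in ileum and 0.36 in distal colon, and without distal colon the list median was -0.0066. Ccna2, the cyclin of DNA replication, had 0.20, 0.19 and 0.92 (limma adjusted p = 0.294). Goblet cell genes had 6 of 16 higher and 1 lower (median 0.04, and -0.022 without distal colon), and oxidative phosphorylation had 2 of 26 higher and 7 lower, close to the shares of all genes (median -0.05, and -0.014 without jejunum). None of the 16 smooth muscle genes had the same sign in all segments: their medians were 0.16 in jejunum, 0.15 in ileum and -0.23 in distal colon. Their summed signal followed, with log2 ratios of 0.15, 0.16 and -0.19. The pancreas list's segment medians were 1.29, 0.04 and -0.10. No member of any of the 46 lists had an adjusted p under 0.05.

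Most genes, 7247 of the 11617 tested, had mixed signs over the segments. Only Acaa1b and Ido1, 0.0172% of those tested, were at least 1.5-fold higher in 1 segment and at least 1.5-fold lower in another. Acaa1b, a peroxisomal thiolase under PPAR control, lay at 9.14, 8.98 and 7.49 in yogurt jejunum, ileum and distal colon, against 9.75, 8.96 and 3.93 in the control segments (differences of -0.61, 0.02 and at least 1.99). Ido1, which degrades tryptophan and is induced by interferon gamma, lay at 7.18, 6.62 and 6.19 in the yogurt segments, against 7.01, 7.52 and 4.67 in the control segments (0.17, -0.90 and at least 0.70). The ileum markers named beside the antimicrobial genes ran with Acaa1b in distal colon, with a summed signal of 679.5 in yogurt distal colon and 365 in control distal colon. The part of that tissue in these differences was not tested.

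The gut shift was set against the diet differences in liver and spleen of the same mice. No gene passed at a limma adjusted p under 0.05 for gut minus liver and spleen (0%), while 1326 genes (11.4%) had an unadjusted p under 0.05, 829 on the higher side (7.14%) and 497 on the lower (4.28%). Of 1354 genes higher in all gut segments and measured in liver and spleen, 262 (19.4%, and 2.26% of all genes tested) were also higher in both and 579 were lower in both. Of 2611 genes lower in all gut segments, 1177 (45.1%, and 10.1% of all genes tested) were lower in both and 464 were higher in both. The 2.26% and 10.1% are the same counts over all genes tested and not base rates. Beside them, of 6418 measured genes with mixed gut signs, 1310 were higher in both liver and spleen and 2560 were lower in both. Whether evenly signed genes shared their sign with liver and spleen more often than that was not tested. The medians of all genes, -0.02 in liver and -0.04 in spleen, lean to the lower side there too. BC018473, S100a8, Mid1 and Cirbp kept their sign in all 5 tissues. The gut minus liver and spleen differences of Mid1 and Cirbp were -0.23 and 0.32 (adjusted p of 0.684 and 0.468). Those of BC018473 and S100a8 rest on floors, and on the deposited values they were -0.13 and 0.54. For Iigp1 the difference was 0.52 (adjusted p = 0.19) and for Car3 at least 1.42 (adjusted p = 0.241), so neither was shown to be larger in gut.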

How the data were processed

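Expression was measured on a whole-genome mouse array in 5 tissues of 28-month-old male ICR mice, 1 array per diet and tissue, each from pooled RNA of which 100 ng was labelled. The values are log2 expression per probe set as the authors deposited them. MAS5 and affy are named, without versions or roles, in the submitters' processing notes; the summary method and the scaling are not given in the sources used. The array medians lay between 5.42 and 5.50. Of 45101 probe sets, 34958 had 1 symbol in the platform annotation (34754 matched to RefSeq by gene number), 932 had several and were not used, and 9211 were unnamed here.

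Values below an array's median were raised to it (the floor), so a difference against the floor is a lower bound. The 6 gut arrays were fitted with limma 3.58.1 in R 4.3.3 (lmFit and eBayes with trend, tissue plus diet, 2 residual degrees of freedom, Benjamini-Hochberg adjustment over 11617 genes). All 10 arrays were fitted with separate diet terms for gut and for liver and spleen. The script was tested on simulated data. Of 50 genes shifted by -1, 0.5, 1 or 2, the gut fit called 45, 45, 48 and 50. It also made 21 false calls there, so its adjusted p is not a strict guard. Nothing says that arrays are replicates of a diet, so p-values measure the spread between segments of the same pools. In the fit of all 10 arrays they also measure that between liver and spleen. Precision is limited by the number of arrays.

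The genes named are those passing the test; the 12 higher and 12 lower with the largest smallest difference over segments among genes above the floor on 6 arrays; up to 3 members per list with at least 5 tested genes; genes 1.5-fold in opposite directions; and members of the clock and marker lists. The other genes of a list are named where their place in its count is given. The comparison, the 46 lists (681 genes, 612 matched) and the rules were chosen with earlier results of these data known. Promoter windows come from RefSeq. The alternatives were other floors and filters, centring, quantile normalization, a pseudocount of 32 on the linear scale, the mean over probe sets, no trend, leaving out each segment, and the spread from all 10 arrays.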

Additional observations from a re-analysis of the deposited data

Results flagged for a closer look

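The results below were picked out because the yogurt minus control difference had 1 sign in all 3 gut segments and the opposite sign in both liver and spleen. All are genes named by the rules above, and the pattern was common. Of 1354 measured genes higher in all gut segments, 579 were lower in both, beside 2560 of 6418 genes with mixed gut signs. Of 2611 genes lower in all gut segments, 464 were higher in both, beside 1310 of those 6418. The value given for each is the gut mean minus the mean of liver and spleen, on the log2 scale. The difference itself was tested with limma over 10 arrays, and none of these genes had an adjusted p under 0.05, the lowest being 0.19 for C1qb and Creld2. Higher in gut and lower in liver and spleen were C1qb at 0.65 and the plasma cell joining chain gene Jchain at 0.69. So were Creld2, a chaperone of the endoplasmic reticulum, at 0.59 and the mannose receptor gene Mrc1 at 0.35. H2-DMa, which loads class II molecules, had 0.30, and the T cell coreceptor gene Cd4 had 0.27. In liver H2-DMa differed by -0.03, and another of its probe sets had 0.06 there. Jchain differed by 0.08, 0.07 and 0.05 in the gut segments and by -0.95 in liver. Tnfrsf17, also on the plasma cell list, was lower in all 3 segments, with a mean of -0.30 that rests on the floor in distal colon. Another C1qb probe set had -0.095 in distal colon and a gut mean of 0.04. Also higher in gut and lower in liver and spleen were the stem cell ubiquitin ligase gene Znrf3 at 0.41 and Hadhb of mitochondrial fatty acid oxidation at 0.33. The fatty acid carrier gene Cd36 had 0.32, Tsc22d3 0.20 and the junction gene Tjp1 0.18. Another probe set of Hadhb had a gut mean of -0.03, and another of Tsc22d3 one of -0.06. Genes lower in gut and higher in liver and spleen were the drug-metabolising Cyp2b10 at -0.62, the chemokine gene Cxcl1 at -0.52, Gstm1 at -0.48 and Sphk1 at -0.47. Cyp2b10 differed by -0.74, -0.08 and -0.23 in the gut segments, where the last rests on the floor. Its other probe sets lay below the floor in ileum and distal colon on both diets. The others were Cdkn1a at -0.38, elastin Eln at -0.32, the ATP synthase subunit gene Atp5c1 at -0.13 and the ribosomal protein gene Rps14 at -0.11. In spleen Cdkn1a differed by only 0.003, and another of its probe sets had -0.20 there. Another Eln probe set had 0.12 in jejunum and a gut mean of -0.01. Another Cxcl1 probe set was higher in jejunum and ileum, at 0.35 and 0.25, with a gut mean of 0.18.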

How the results depend on the processing

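Genes called by limma numbered 1 higher and 0 lower, and 3 higher and 1 lower with no floor or with the floor at the 35th percentile, 2 higher and 1 lower with a pseudocount, and 2 higher (Iigp1 and Scd1) with the spread from all 10 arrays. No gene was called with a 65th percentile floor, without the filter, with all 6 gut arrays required above the median or with the mean over probe sets, where 1443, 1605, 1505 and 1267 genes had an unadjusted p under 0.05. Leaving out a segment, which leaves 1 residual degree of freedom, gave 1 to 17 higher and 0 to 16 lower calls, the most without distal colon. Genes at least 1.5-fold in all segments numbered 3 higher and 1 lower, 5 higher with no floor or the 35th percentile, 0 higher and 0 lower with the 65th, 0 higher with all arrays required above the median, 1 higher with the mean over probe sets, and 0 lower after quantile normalization or with a pseudocount, and 4 to 10 higher and 2 to 3 lower with a segment left out. The gut minus liver and spleen difference had 0 calls, and 1 (Cyp39a1) with all arrays required above the median, with centring and with quantile normalization, and 0 to 1 with a segment left out. With the floor at the 65th percentile, Selp, Nfil3, Hp, Nkg7, St6galnac1 and Lox were at the floor on every gut array and gave -0.0046. Ido1, near 0, gave 0.26 with no floor, 0.25 at the 35th percentile, 0.013 with centring, 0.095 with a pseudocount, and -0.36 to 0.44 with a segment left out. Acaa1b ranged from -0.29 to 1.01 with a segment left out. With the mean over probe sets Rps6 was -0.024 and F11r 0.049. Rora was 0.014 with centring and 0.00055 after quantile normalization. With a segment left out, Per2 ranged from -0.091 to 0.11, Dbp from -0.42 to 0.0011, Arntl from -0.028 to 0.26, Clock from -0.043 to 0.13 and Rora from -0.12 to 0.067. List medians kept within their spread in 404 of the repeats and moved beyond it in 28, none of them called. Causes were not tested, except where genes fell to the floor.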

Other observations

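Lists of digestion, absorption and epithelial renewal held genes of both directions. Slc15a1, the peptide transporter of the brush border, was higher in the yogurt pool by 0.24, 0.30 and 0.21 in jejunum, ileum and distal colon (limma adjusted p = 0.239), and Cd36 by 0.13, 0.23 and 0.41. Mep1a, a brush border metalloprotease, was lower, at -0.57, -0.10 and -0.18 (adjusted p = 0.292). Of 15 such genes tested, 2 were higher in all segments and 5 were lower, close to the 13% and 24.6% of all genes. Their segment medians were -0.07 in jejunum, -0.04 in ileum and 0.21 in distal colon. The 8 with mixed signs include Fabp2 and Alpi, which were higher in yogurt distal colon by 1.64 and at least 1.99. Thrsp, a regulator of fatty acid synthesis, had differences of 0.15, 0.84 and 0.34, while Dgat2, which makes triglyceride, had -0.51, -0.11 and -0.06. Lgr5, the crypt stem cell receptor, was higher by 0.25, 0.12 and 0.13 (adjusted p = 0.356), within a list of 11 tested genes whose median was 0.00, and 0.037 without jejunum. The peptide hormone gene Pyy lay at -0.01, -0.15 and -0.19, and none of the 11 enteroendocrine genes tested had an unadjusted p under 0.05.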
